A study of Mus musculus with 2 samples.

Results

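The 9 collagen chains described here are Col6a1, Col6a2, Col6a3 and Col6a6 of collagen VI, Col8a1, Col12a1, Col14a1, Col15a1 and Col18a1. They were chosen by name as chains that do not form the striated collagen fibrils, and they are 9 of the 44 collagen chains and of the 31054 features listed in the deposited tables. Their counts were compared between 2 libraries within stellate, endothelial and Kupffer cells, which were themselves picked by other genes.

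Collagen VI is built mainly from its alpha 1, alpha 2 and alpha 3 chains, which assemble into beaded microfilaments around cells, next to basement membranes and along collagen fibrils. Collagen XII and collagen XIV sit on the surface of fibrils, collagen VIII forms hexagonal networks in vessel walls, and collagen XV and collagen XVIII belong to basement membrane zones, the last being the precursor of endostatin. In the liver most of these chains are made by hepatic stellate cells (HSCs), the vitamin A-storing pericytes of the sinusoid, and by portal fibroblasts, while Col18a1 is also made by hepatocytes, and most are deposited together with fibrillar collagen when the organ scars.

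HSCs were isolated by digestion and density gradient from livers of male C57BL/6 mice after 4 weeks of carbon tetrachloride (CCl4), and both groups also received tamoxifen and diphtheria toxin. Mice of both groups carried p16-CreERT2 and the R26-CAG-LSL-RSR-tdTomato-2A-DTR allele, in which both Cre and Dre must act before the toxin receptor is made. Only the p16-Alb-LRTD mice also carried Alb-DreERT2, whose albumin promoter restricts Dre to hepatocytes, so that hepatocytes with high p16 (Cdkn2a) expression were to be killed, while the p16-LRTD littermates kept them. The comparison therefore addressed what HSCs express when p16-high hepatocytes have been removed during injury. There was 1 library per genotype, the age of the mice and the number pooled in each library are not given in the sources used here, and the authors considered that the stop cassette may leak some toxin receptor. With 1 library per group the genotypes were not tested against each other and no p-values are printed. Every interval below is a 95% interval for counting error alone, while the spread between mice cannot be told apart from the genotype.

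Sequencing gave 193746596 UMIs over 11149 barcodes for p16-LRTD and 162219167 UMIs over 8806 barcodes for p16-Alb-LRTD. After filtering, 9004 and 7416 cells remained, of which 7852 and 6621 were stellate, 430 and 283 endothelial and 283 and 178 Kupffer cells. The 6 stellate check genes (Dcn, Colec11, Des, Cygb, Pdgfrb, Rgs5), which the class rule did not use, summed to 25257.5 and 27963.2 counts per 1000000 UMIs (CPM) in the stellate class and to between 302.9 and 445.5 CPM in the endothelial and Kupffer classes. The 2 libraries shared 95 barcodes, 18 of them among kept cells, and leaving those barcodes out moved no ratio of a chain in the 3 classes beyond its interval. All 12 immediate early and heat shock genes of a stress list were higher in p16-Alb-LRTD stellate cells, 6 of them at least 1.5-fold, with a median log2 ratio of 0.64. The 4 cell division genes (Mki67, Top2a, Cenpf, Birc5) were all at least 1.5-fold lower, with a median of -2.92, and Cdkn2a itself was at 6.12 and 4.63 CPM. The part of these differences in the collagen values was not tested, except that the collagen VI ratio was -0.55 with dividing cells left out, against -0.56 with them.

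Col6a1 (ENSMUSG00000001119) and Col6a2 (ENSMUSG00000020241) lie on chromosome 10 of GRCm38, at chr10:76708792-76726168 and chr10:76595762-76623630, both on the minus strand and 85161 bases apart, and Col18a1 (ENSMUSG00000001435) follows at chr10:77052178-77166548. Col6a3 (ENSMUSG00000048126) is at chr1:90765923-90843971, Col6a6 (ENSMUSG00000043719) at chr9:105687809-105828160 and Col12a1 (ENSMUSG00000032332) at chr9:79598991-79718831. Col8a1 (ENSMUSG00000068196) is at chr16:57624258-57754737, Col14a1 (ENSMUSG00000022371) at chr15:55307750-55520803 and Col15a1 (ENSMUSG00000028339) at chr4:47208161-47313167. Of the 9 genes, only Col6a3 overlaps another annotated gene on its own strand, Gm36970, so that reads there could be split between the 2.

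RefSeq promoter entries (GRCm38.p6) were found for 7 of the 9 chains. The 250 bases before the start are shown for a pair of collagen VI chains, which move together across cells, and for Col8a1 and Col15a1, which had the largest ratios between libraries, where this window lies wholly outside the annotated gene. Capitals mark matches, on either strand, to the TATA box (TATAAA), the GC box (GGGCGG), the CCAAT box (CCAAT), the AP-1 motif (TGANTCA) or the STAT motif (TTCNNNGAA).
Col6a2, chr10:76623631-76623880, minus strand: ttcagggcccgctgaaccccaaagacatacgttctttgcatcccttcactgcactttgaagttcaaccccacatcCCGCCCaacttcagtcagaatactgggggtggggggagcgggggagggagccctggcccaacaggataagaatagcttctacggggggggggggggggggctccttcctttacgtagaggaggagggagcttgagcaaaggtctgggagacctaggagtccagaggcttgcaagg
Col6a3, chr1:90843972-90844221, minus strand: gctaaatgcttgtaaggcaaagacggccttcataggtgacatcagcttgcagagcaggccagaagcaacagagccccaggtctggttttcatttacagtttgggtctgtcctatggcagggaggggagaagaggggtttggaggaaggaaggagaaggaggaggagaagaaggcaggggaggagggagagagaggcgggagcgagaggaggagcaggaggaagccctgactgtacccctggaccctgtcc
Col8a1, chr16:57754738-57754987, minus strand: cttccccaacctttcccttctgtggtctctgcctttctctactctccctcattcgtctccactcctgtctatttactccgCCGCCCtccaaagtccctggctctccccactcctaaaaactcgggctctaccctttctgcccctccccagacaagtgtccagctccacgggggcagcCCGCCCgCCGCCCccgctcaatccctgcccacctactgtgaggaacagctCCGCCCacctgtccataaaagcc
Col15a1, chr4:47207762-47208011, plus strand: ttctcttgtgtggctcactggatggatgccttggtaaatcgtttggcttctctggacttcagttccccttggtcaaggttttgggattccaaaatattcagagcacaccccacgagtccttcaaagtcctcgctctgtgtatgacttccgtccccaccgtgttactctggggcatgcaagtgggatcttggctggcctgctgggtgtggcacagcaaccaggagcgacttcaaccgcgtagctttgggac
The Col8a1 window held 4 GC boxes and the Col6a2 window held 1, a motif found in 32.7% of the 32851 promoter windows of this length. The Col6a3 and Col15a1 windows held none of the 5 motifs. TATAAA was in 12.4% of all windows, CCAAT in 33.8%, TGANTCA in 6.75% and TTCNNNGAA in 7.02%. A match is a description of the letters only.

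In stellate cells every one of the 9 chains had a lower level in the p16-Alb-LRTD library, by very different amounts. Col15a1 had 22.1 CPM (21.4 to 22.9) in p16-LRTD but only 4.27 CPM (3.91 to 4.65) in the p16-Alb-LRTD library. The log2 ratio, here always p16-Alb-LRTD over p16-LRTD, was -2.37 (-2.51 to -2.24). Col8a1 was at 18.6 CPM and 7.03 CPM, a log2 ratio of -1.40 (-1.52 to -1.29). Col12a1 was at 9.17 CPM and 4.07 CPM, a log2 ratio of -1.17 (-1.32 to -1.02). These basement membrane zone, network and fibril-surface chains had the fewest UMIs but the largest ratios of the chains that passed the minimum of 5 CPM on average over the libraries.

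Of the main collagen VI chains, alpha 1 to alpha 3, the last differed most. Col6a3 was at 704.8 CPM (700.5 to 709.2) in p16-LRTD against 407.0 CPM (403.5 to 410.6), so that its log2 ratio was -0.79 (-0.81 to -0.78). Col6a2 was at 177.1 CPM and 129.6 CPM, a log2 ratio of -0.45 (-0.48 to -0.42). Col6a1 was at 395.0 CPM and 327.7 CPM, a log2 ratio of -0.27 (-0.29 to -0.25). The intervals of the 3 chains did not overlap, so in these libraries the ratios of the chains of 1 heterotrimer differed by more than counting error. Whether they would differ so between other mice cannot be told. Summed, they were at 1276.8 CPM and 864.3 CPM, a log2 ratio of -0.56 (-0.57 to -0.55), just short of 1.5-fold (0.58 on the log2 scale).

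Col14a1, the fibril-surface chain with the most UMIs of the 9 (353575 and 271596), was nearly level, at 2478.6 CPM and 2170.8 CPM, a log2 ratio of -0.19 (-0.20 to -0.18). Col18a1 was at 5.54 CPM and 2.67 CPM, a log2 ratio of -1.05 (-1.24 to -0.87), and its mean over the libraries stayed under 5 CPM. Col6a6, a further collagen VI chain, was at 1.07 CPM and 0.855 CPM from 153 and 107 UMIs, and its log2 ratio of -0.33 had an interval from -0.70 to 0.04 that includes no difference.

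Of the 7 chains over 5 CPM, 4 were at least 1.5-fold lower in p16-Alb-LRTD (Col6a3, Col8a1, Col12a1, Col15a1), against 3.05% of the 10179 genes tested in this class, and none was as much higher, against 3.03%. Col12a1 and Col15a1 were under 5 CPM in p16-Alb-LRTD and passed the minimum on the mean only through p16-LRTD, where they were higher. The median log2 ratio of the 7 chains was -0.79, beside -0.05 over all genes. Of all tested genes, 16 had a lower ratio than Col15a1, 56 a lower one than Col8a1, 70 a lower one than Col12a1 and 164 a lower one than Col6a3, while 2431 lay below Col14a1.

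**Figure D1:**
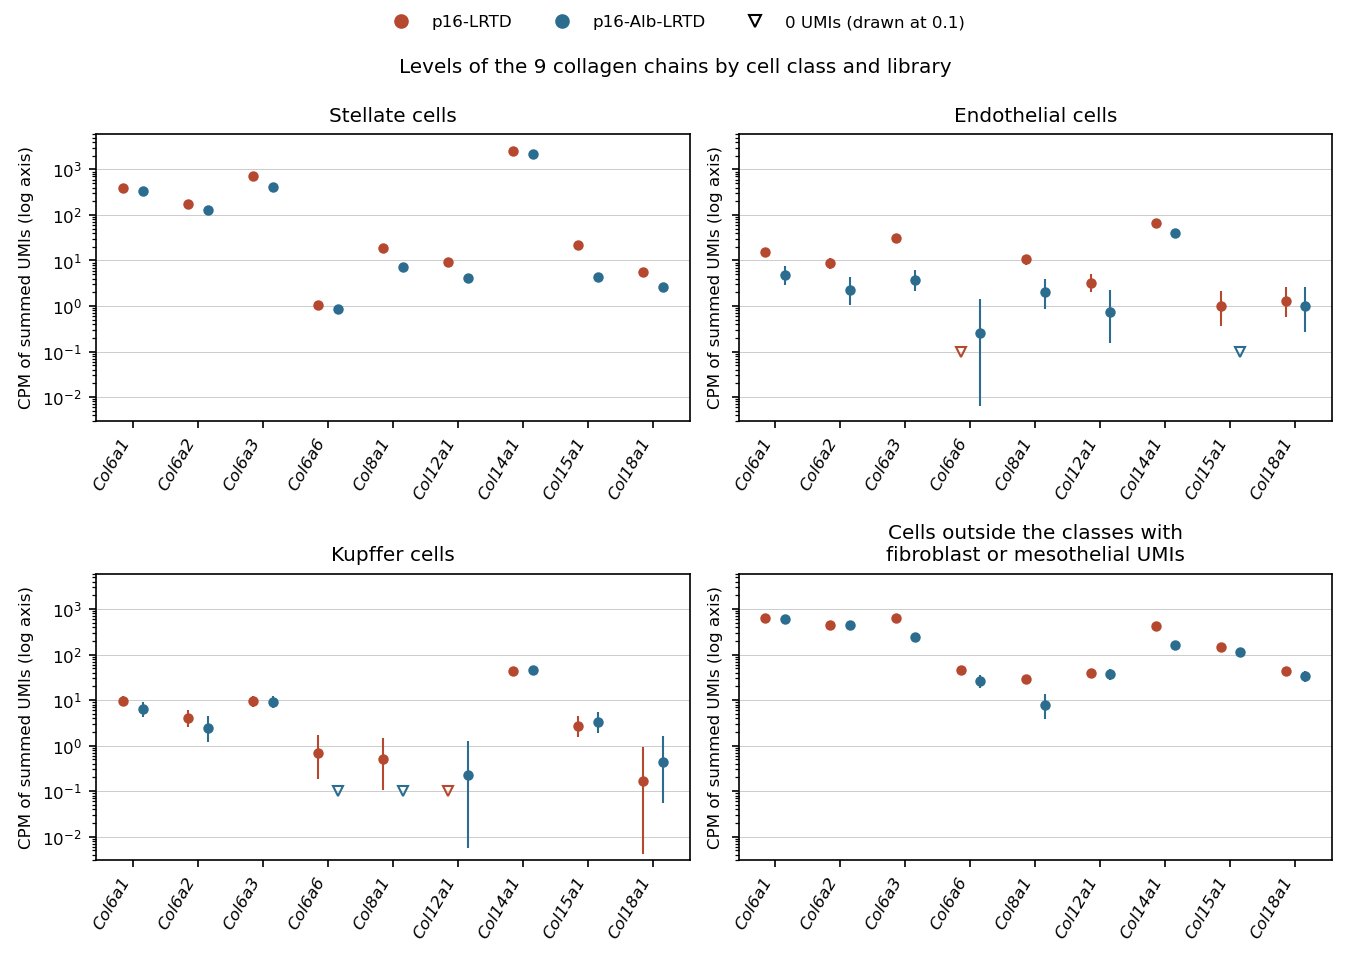
CPM of summed UMIs (log axis) for each of the 9 chains in stellate, endothelial and Kupffer cells and in cells outside the classes that carried at least 2 fibroblast or mesothelial UMIs, for p16-LRTD (red) and p16-Alb-LRTD (blue), with 95% Poisson intervals and open triangles for 0 UMIs. In stellate cells Col15a1 was at 22.1 and 4.27 CPM and Col14a1 at 2478.6 and 2170.8 CPM. All chains but Col6a3 and Col14a1 had their highest value outside the classes in both libraries.

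Stellate cells, which were 87.2% and 89.3% of the kept cells, held most of the UMIs of each abundant chain. They held 94.7% and 95.5% of those of Col6a1 in the 2 libraries, and 96.2% and 96.1% of those of Col14a1. Col6a6 was the exception, with 51.5% and 71.3% of its UMIs in stellate cells and 46.5% and 26.7% in the 194 and 113 cells that met no class rule. Col15a1 likewise had 12.2% and 22.9% of its UMIs in those few cells, and Col18a1 17.1% and 14.9%. The stellate cells held 86.6% and 74.6% of the Col15a1 UMIs and 80.5% and 80.3% of those of Col18a1, less than their share of cells.

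How many stellate cells carried a chain was compared after each cell had been thinned to 5000 UMIs, which left out 16 of the shallower stellate cells in p16-LRTD and 7 in p16-Alb-LRTD. Col6a1 was found in 73% and 75.7% of cells and Col6a3 in 77.6% and 79.3%, while Col6a2 was found in 48% and 44.3%. At 3000 UMIs per cell the shares were 59.4% and 60.1% for Col6a1, 65.2% and 63.3% for Col6a3 and 34.6% and 31% for Col6a2, so that the order of the Col6a3 shares turned between the depths and the Col6a1 shares differed by less at the lower one. The upper end differed more: 10 or more Col6a3 UMIs were held by 7.39% of p16-LRTD cells but by 0.59% of p16-Alb-LRTD cells, with a median of 2 in both. Without thinning the shares were 94.2% and 97.8% for Col6a3.

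The rarer chains differed in the share of cells itself. Col15a1 was found in 5.74% (5.24 to 6.28) of thinned cells in p16-LRTD but 1.39% (1.12 to 1.7) in p16-Alb-LRTD, with 11.4% and 3.56% before thinning. Col8a1 was found in 6.29% and 2.52%, Col12a1 in 3.5% and 1.63%, and Col18a1 in 2.37% and 1.07%. Thinned endothelial cells carried Col12a1 in 0.957% and 0%, and Col18a1 in 0.239% and 1.06%. No thinned Kupffer cell carried either chain, with intervals reaching 1.32% and 2.06%. The p16-Alb-LRTD stellate shares of Col12a1 and Col18a1 are therefore not read as above background. Kupffer cells, which should make none of these chains, carried Col15a1 in 2.16% (0.796 to 4.64) and 2.26% (0.619 to 5.68) of thinned cells, intervals that include the share of p16-Alb-LRTD stellate cells, at a median depth of 18136 UMIs in stellate and 25101.5 in Kupffer cells. At 3000 UMIs per cell the Kupffer share was 0% in both libraries, against 3.95% and 0.891% of stellate cells. The Kupffer level of Col15a1 was 12.2% and 78.6% of its stellate level, where Dcn stood at 1.31% and 1%, so the stellate share in p16-Alb-LRTD is read neither as background nor as above it. Kupffer cells carried Col8a1 in 0.36% and 0%, the last from 0 of 177 thinned cells, whose interval reaches 2.06%. Col14a1 was found in 99.6% and 99.1% of stellate cells, and in 20.5% and 21.5% of Kupffer cells.

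The 9 chains were not spread alike over the stellate cells. Across cells of a library, Col6a1, Col6a2 and Col6a3 went together, with Pearson r between 0.61 and 0.67 in p16-LRTD and between 0.35 and 0.41 in p16-Alb-LRTD. All 3 had Col1a1 as the most similar gene outside the set, among 3458 genes with at least 50 CPM: r was 0.79 and 0.53 for Col6a3, 0.71 and 0.47 for Col6a1, and 0.68 and 0.44 for Col6a2. Col14a1 ran the other way, with r of -0.43 and -0.30 to Col1a1 and of -0.42 and -0.28 to Col6a3.

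Among the same genes of at least 50 CPM, those most like Col14a1 were Colec10, a collectin (r 0.61 and 0.57), Sod3, the extracellular superoxide dismutase (0.57 and 0.53), and Igfbp3, an IGF-binding protein (0.58 and 0.53). Those most like Col12a1 were Alcam, a cell adhesion molecule (0.43 and 0.33), Plxna4, a semaphorin co-receptor (0.36 and 0.31), and Plat, tissue plasminogen activator (0.38 and 0.30). Col15a1 was most like Emp1, a membrane protein (0.43 and 0.32), Plat (0.49 and 0.32) and Col1a1 (0.48 and 0.30). Of the genes over 50 CPM, only Myh11, smooth muscle myosin heavy chain, reached an r of 0.2 with Col8a1 in both libraries (0.22 and 0.21), only Plce1 and Igfbp4 did with Col6a6, and none did with Col18a1. Dpt, a portal fibroblast marker below that level in p16-Alb-LRTD, had higher r than these genes with Col15a1 (0.52 and 0.35) and reached 0.43 and 0.35 with Col12a1 and 0.22 and 0.24 with Col6a6. These values are descriptions: the points are cells of 1 library, which share its depth, and Col6a3 itself had r of 0.36 and -0.03 with the log of a cell's total UMIs.

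**Figure D2:**
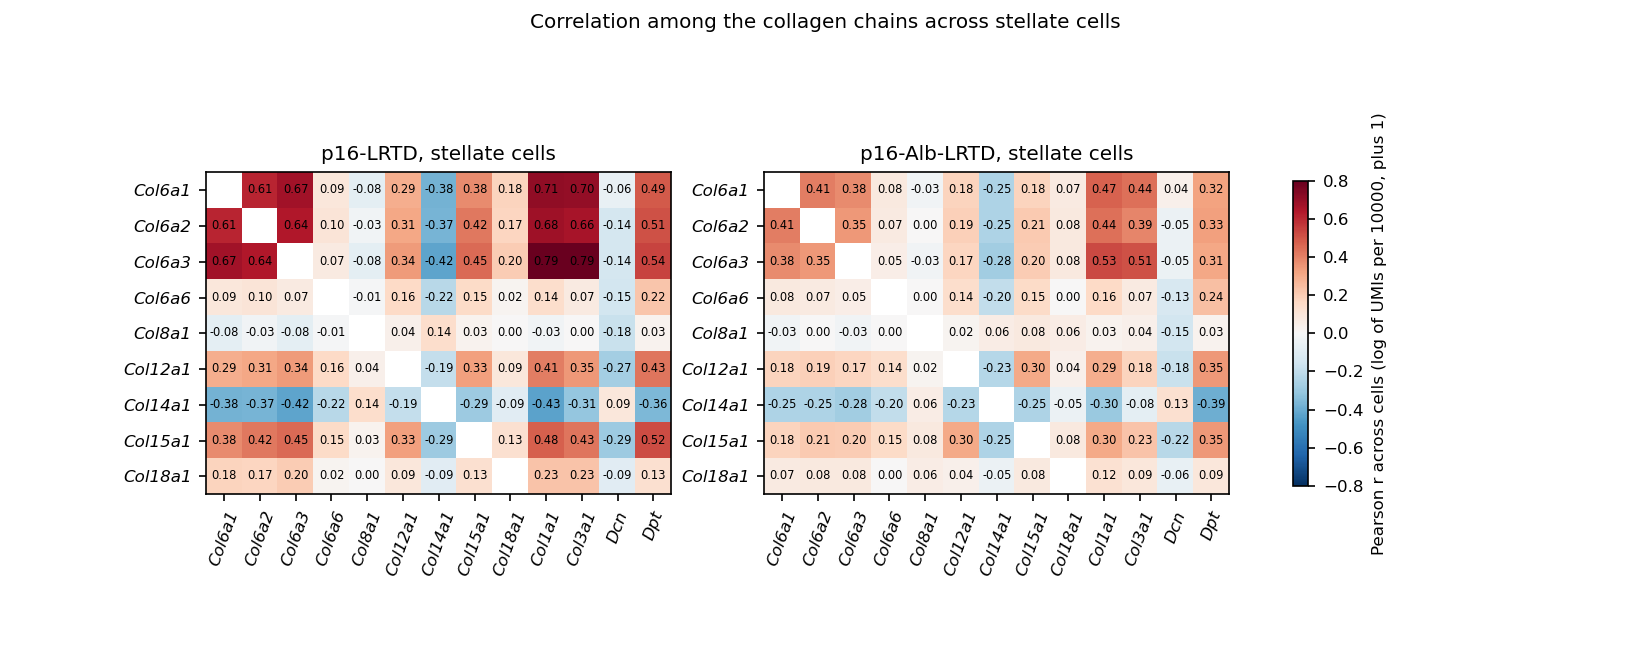
Pearson r across stellate cells of each library (left p16-LRTD, 7852 cells; right p16-Alb-LRTD, 6621 cells) between the 9 chains (rows) and the same chains with Col1a1, Col3a1, Dcn and Dpt (columns), on the natural log of UMIs per 10000 plus 1. Red cells among Col6a1, Col6a2, Col6a3, Col1a1 and Col3a1 reach 0.79, and the Col14a1 row is blue against them, down to -0.43.

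Because collagen VI went with fibrillar collagen, the stellate cells of both libraries were divided at common bounds of 14.3, 23.1 and 51 UMIs of Col1a1, Col1a2 and Col3a1 per 10000, the quartiles of the pooled cells. The top quartile held 36.8% of the p16-LRTD cells against 11% of those from p16-Alb-LRTD. These are ranges and not cell types, and 9.37% and 9.06% of cells lay within 20% of the upper bound and between 14.4% and 24.1% within 20% of the other bounds. The ranges are cut on genes that themselves differ between the libraries.

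Within the lower 3 quartiles all 3 collagen VI chains were higher in p16-Alb-LRTD. Col6a1 was at 158.6 CPM in p16-LRTD and 222.1 in p16-Alb-LRTD in the lowest quartile (log2 ratio 0.49, 0.43 to 0.54), and at 308.3 and 389.9 CPM in the quartile below the top (0.34, 0.30 to 0.38). Col6a3 was at 228.6 and 334.2 CPM in the second quartile (0.55, 0.50 to 0.59). In the top quartile the order turned: Col6a3 was at 1276.8 and 799.6 CPM (-0.68, -0.70 to -0.65), and Col6a1 at 620.7 and 567.0 CPM (-0.13, -0.17 to -0.10). The direction of the collagen VI difference thus depended on the range of fibrillar collagen in which cells were compared.

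In p16-LRTD the top quartile held 77.7% of all stellate Col6a3 UMIs, 97% of those of Col12a1 and 98.3% of those of Col15a1, against 22.3%, 56.2% and 72.8% in p16-Alb-LRTD. In the quartile below it Col12a1 and Col15a1 were scarce but higher in p16-Alb-LRTD, Col12a1 at 0.837 and 4.66 CPM (2.48, 1.87 to 3.14) and Col15a1 at 1.2 and 3.11 CPM (1.37, 0.82 to 1.95). Within the top quartile Col12a1 was level, at 20.7 and 20.1 CPM (-0.04, -0.23 to 0.14), and Col15a1 was lower, at 50.8 and 27.4 CPM (-0.89, -1.05 to -0.74). Col6a6 turned direction as well: it was at 2.42 and 4.93 CPM in the top quartile (1.03, 0.60 to 1.45), and at 0.647 and 1.48 CPM with both libraries given the same shares of the 4 quartiles. With those equal shares the log2 ratios became 0.18 for Col6a1, 0.10 for Col6a2, -0.16 for Col6a3, 0.24 for Col12a1 and -0.75 for Col15a1, and that of summed collagen VI became 0.00. Col18a1 went from -1.05 to -0.34.

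Col8a1 and Col14a1 behaved differently. Col8a1 was lower in p16-Alb-LRTD in all 4 quartiles, for instance 26.2 against 5.08 CPM in the second (-2.37, -2.61 to -2.14) and 17.5 against 12.6 CPM in the top quartile (-0.47, -0.71 to -0.24), and its ratio at equal quartile shares was -1.28. Col14a1 was also lower in all 4, at 2898.1 and 2284.1 CPM in the lowest (-0.34, -0.36 to -0.33) and 2041.5 and 1856.4 CPM in the top quartile (-0.14, -0.16 to -0.12), and its ratio at equal quartile shares was -0.31.

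**Figure D3:**
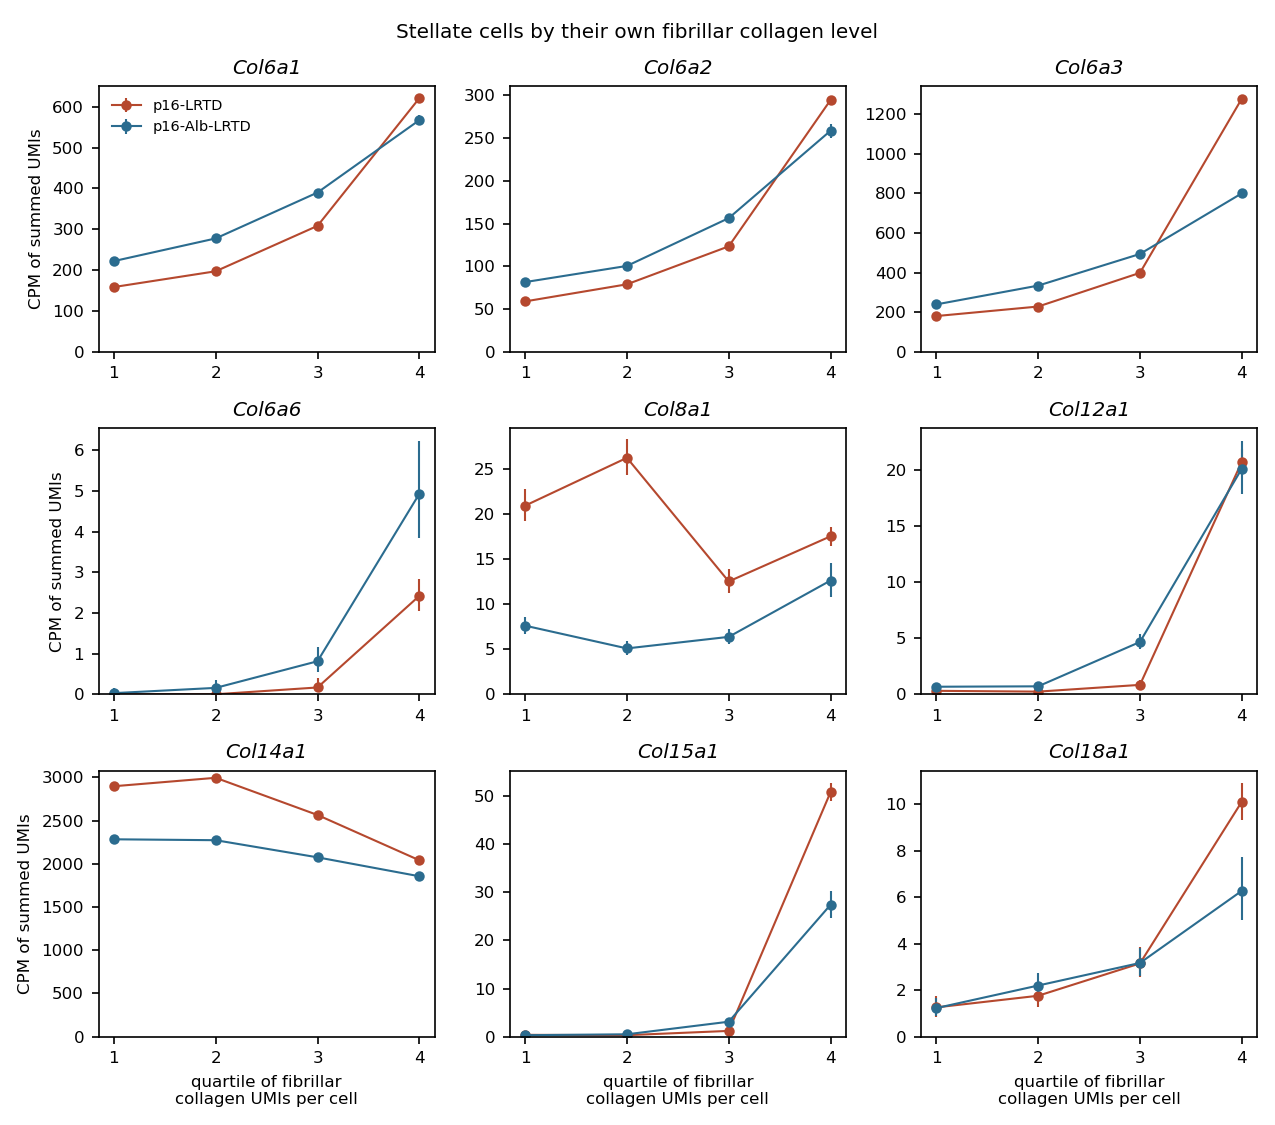
CPM of each chain (y axis, starting at 0) in the 4 quartiles of fibrillar collagen UMIs per stellate cell (x axis, common bounds), for p16-LRTD (red) and p16-Alb-LRTD (blue), with 95% Poisson intervals. The Col6a1, Col6a2 and Col6a3 lines cross between the quartile below the top and the top quartile, where Col6a3 reached 1276.8 and 799.6 CPM, whereas the Col8a1 and Col14a1 lines do not cross.

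The 1448 stellate cells with the most UMIs per 10000 of Notch3, a pericyte receptor, and Clstn2, a calsyntenin, had Col8a1 at a higher level than the class. There it was at 66.8 CPM in p16-LRTD and 55.2 in p16-Alb-LRTD, 3.59 and 7.85 times the level of all stellate cells, with a log2 ratio of -0.28 (-0.48 to -0.08). They made up 15.1% of the p16-LRTD class but 3.91% of the p16-Alb-LRTD class, and 377 and 119 cells lay within 20% of the bound. They held 43.1% and 28.3% of the stellate Col8a1 UMIs, and without them the ratio of Col8a1 was -1.20. In the same cells Col6a3 was at 186.7 and 215.0 CPM, well under its level in all stellate cells, and Col14a1 at 3416.4 and 2909.7 CPM, above it.

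The 1448 cells with the most of Alcam and Svep1, an adhesion and a matrix protein gene, were 9.27% and 10.9% of the stellate cells. Col12a1 was there at 49.2 and 25.3 CPM (-0.96, -1.15 to -0.77), Col15a1 at 96 and 26.1 CPM (-1.88, -2.05 to -1.71) and Col6a6 at 8.82 and 6.61 CPM (-0.42, -0.82 to -0.02). They held 88.9% and 84.1% of stellate Col6a6 UMIs and 58% and 67.8% of those of Col12a1. Col6a3 was at 1558.3 and 665.6 CPM, while Col14a1 was below its class level, at 1690.9 and 1345.6 CPM. Col1a1 was at 6868.4 and 1762.5 CPM in these cells.

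Each of 4 further gene sets was given 1448 stellate cells in the same way, the set of C3, Mgp and Igfbp6 being genes far higher in the cells outside the classes that carried fibroblast or mesothelial UMIs. The bound of that set was only 0.486 UMIs per 10000, which a single UMI met in a cell of median depth, so its cells depend on depth. With Galnt14, Hhip and Cdh18 the collagen VI chains were level, as in Col6a3 at 300.9 and 304.1 CPM (0.02, -0.05 to 0.08). The sets took unlike shares of the libraries, 4.72% and 16.3% of stellate cells with Grid1, Inmt and Sdk2, 4.66% and 16.3% with Tgfbi, Fcna and G0s2, 10.4% and 9.59% with Galnt14, Hhip and Cdh18, and 9.6% and 10.5% with C3, Mgp and Igfbp6. With Grid1, Inmt and Sdk2 Col6a3 was at 1199.1 and 560.2 CPM (-1.10, -1.14 to -1.06), and with C3, Mgp and Igfbp6 at 1125.4 and 539.2 CPM (-1.06, -1.10 to -1.02). With Tgfbi, Fcna and G0s2 it was at 399.6 and 333.5 CPM (-0.26, -0.33 to -0.19), and Col8a1 was nearly missing, at 0.858 and 1.86 CPM from 5 and 35 UMIs. Over these 6 sets the Col6a3 ratio ran from -1.23 with Alcam and Svep1 to 0.20 (0.10 to 0.31) with Notch3 and Clstn2, on both sides of 0.

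The sum of portal fibroblast markers was lower along with several of these chains, whereas the mesothelial sum was level. In stellate cells the 7 fibroblast markers summed to 76.9 CPM in p16-LRTD and 37.2 in p16-Alb-LRTD, and the 4 mesothelial markers to 44.7 and 43.7, with all 11 detected in both. Of the fibroblast markers over 5 CPM, Dpt, which made up most of the fibroblast sum, was at 60.4 and 29.7 CPM and Cd34 at 11.9 and 5.1 CPM. Gli1 went the other way, from 27 and 33 UMIs (0.48, -0.30 to 1.27). Thy1 had 31 and 21 UMIs (-0.37, -1.25 to 0.47), so both intervals include no difference. Wt1, which made up nearly all of the mesothelial sum, was at 43.7 and 43.5 CPM (-0.01, -0.06 to 0.05), and Msln and Krt19 had 37 and 27 UMIs in p16-LRTD and 2 and 1 in p16-Alb-LRTD. Markers of other cells were lower in p16-Alb-LRTD stellate cells as well: the 3 smooth muscle markers summed to 150.9 and 73.9 CPM, nearly all of it Myh11 (-1.03), the 5 hepatocyte markers to 23.3 and 13.5 CPM (Alb, -0.80) and the 5 endothelial check genes to 74.5 and 51.2 CPM. Their part in the chain ratios was not tested. Stellate cells with at least 2 UMIs of the 11 fibroblast and mesothelial genes were 21.1% and 16% of the class, at median depths of 21210 and 18664.5 UMIs, and held 90% and 89.9% of the stellate Col15a1 UMIs and 80.4% and 79.8% of those of Col12a1.

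Within the cells with at least 2 such UMIs the collagen VI ratios were larger than in the whole class for Col6a3, at 1495.3 and 693.5 CPM (-1.11, -1.13 to -1.08), as for Col6a2 (-0.52) and Col6a1 (-0.42). In the cells with fewer than 2 such UMIs, 78.9% and 84% of the class, the collagen VI difference was small. These cells had median depths of 16189 and 18027 UMIs, and the bound of 2 UMIs was not scaled to depth. Col6a1 was at 291.7 and 289.0 CPM (-0.01, -0.04 to 0.01), Col6a2 at 118.5 and 106.7 CPM (-0.15, -0.19 to -0.11) and Col6a3 at 431.8 and 348.9 CPM (-0.31, -0.33 to -0.29). Col8a1 kept a ratio of -1.38 (-1.51 to -1.26), at 18 and 6.88 CPM, and Col15a1 one of -2.52 (-2.96 to -2.10), at 2.97 and 0.519 CPM. Col12a1 had a ratio of -1.29 (-1.64 to -0.96), at 2.42 and 0.99 CPM. Of the 5 chains that still reached 5 CPM only Col8a1 was 1.5-fold lower: Col6a3 fell short of that size, and Col12a1 and Col15a1 kept it but were under the minimum.

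**Figure D4:**
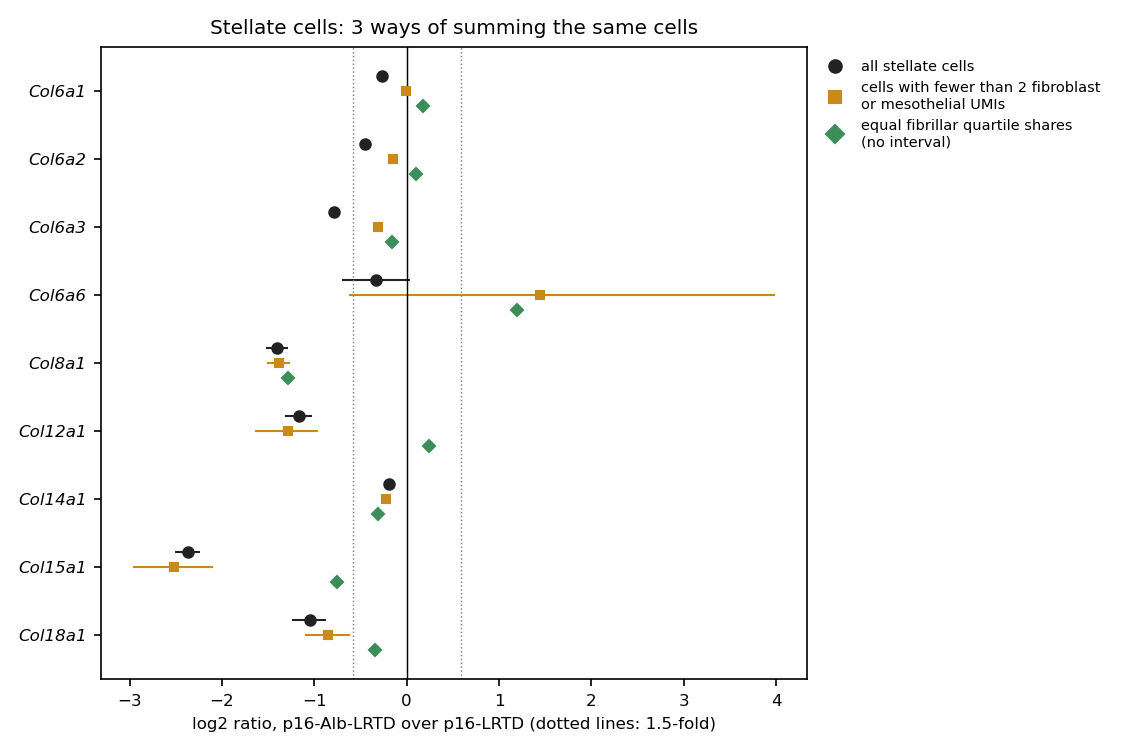
Log2 ratio of p16-Alb-LRTD over p16-LRTD (x axis) for each chain in all stellate cells (circles), in cells with fewer than 2 fibroblast or mesothelial UMIs (squares) and with both libraries given equal shares of the fibrillar collagen quartiles (diamonds), with 95% counting intervals where these can be computed. Col8a1 stays between -1.40 and -1.28, whereas Col6a1 goes from -0.27 to 0.18 and Col12a1 from -1.17 to 0.24.

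Cells that met no class rule had several chains at higher levels than stellate cells. Of these, 125 p16-LRTD and 56 p16-Alb-LRTD cells held at least 2 fibroblast or mesothelial UMIs, with Wt1 at 672.8 and 451.0 CPM, Igfbp6 at 807.1 and 434.4 CPM and C3 at 4811.0 and 5776.8 CPM. Col6a6 was there at 46.8 CPM (39.3 to 55.3) and 25.7 CPM (18.1 to 35.4), which was 43.6 and 30.1 times its stellate level. Col15a1 was at 148.9 and 112.6 CPM, Col18a1 at 43.1 and 33.4 CPM and Col12a1 at 40 and 37.5 CPM. The last pair of values overlapped in their intervals, 33.1 to 47.9 and 28.2 to 49. Col6a1 was at 638.3 and 602.6 CPM and Col6a2 at 444.9 and 452.4 CPM, so that neither chain was 1.5-fold different, whereas Col6a3 was at 622.0 and 248.8 CPM. Col14a1 had only 0.174 and 0.0759 times its stellate level. The other 69 and 57 cells outside the classes, with the hepatocyte gene Alb at 1489.3 and 372.8 CPM, had Col18a1 at 27 and 11.4 CPM, 4.87 and 4.28 times its stellate level, from 41 and 14 UMIs in 5 cells of each library.

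In endothelial cells the chains were scarce. Col14a1 was at 66.8 and 39.2 CPM, 2.69% and 1.8% of its stellate level, and Dcn, a stellate transcript that endothelial cells should not make, stood at 1.73% and 1.16% of its own. Col6a3 was at 31.2 CPM (192 UMIs) and 3.77 CPM (15 UMIs), Col6a1 at 15.4 and 4.77 CPM and Col6a2 at 8.61 and 2.26 CPM. Col8a1 was at 10.6 and 2.01 CPM, 56.7% and 28.6% of its stellate level, but all 65 UMIs in p16-LRTD came from 1.16% of the 430 cells. Col12a1 (35.4% and 18.5%) and Col18a1 (23.5% and 37.6%) also stood far above the Dcn share, from 20 UMIs or fewer.

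All 5 chains over 5 CPM in endothelial cells were at least 1.5-fold lower in p16-Alb-LRTD, against 13.5% of the 9855 genes tested, with a median log2 ratio of -1.93 beside -0.10 over all genes, and none was as much higher, against 6.44%. Col6a1, Col6a2, Col6a3 and Col8a1 were under 5 CPM in p16-Alb-LRTD and passed the minimum on the mean only through p16-LRTD. That choice favours lower ratios, so no conclusion is drawn from the count. A single p16-LRTD cell held 36.8% of the endothelial Col6a1 UMIs, 54.7% of those of Col6a2, 45.3% of those of Col6a3 and 74.5% of those of Col1a1. It had 10.8 stellate rule UMIs per 10000, under the bound of 15. Without the cell richest in fibrillar collagen in each library, the ratio of Col6a2 was -0.78 (-2.07 to 0.38) and that of Col14a1 -0.42 (-0.71 to -0.14). With cells that met more than one class rule kept, Col6a1 was at 0.17 (0.03 to 0.30) and Col14a1 at 0.22 (0.18 to 0.26), and the median was -0.04, while Col8a1 was still at -1.65 (-2.22 to -1.11) and Col6a3 at -0.17 (-0.29 to -0.06). The direction of Col6a1 and Col14a1 in endothelial cells thus changed with the treatment of such cells. With lower class bounds Col6a1 was at -0.35 (-1.23 to 0.48), Col6a2 at -0.16 and Col14a1 at 0.08 (-0.24 to 0.39), none of them 1.5-fold lower, and the median of the 4 chains then over 5 CPM was -1.01. The 7 fibroblast markers summed to 49.2 and 27.1 CPM in endothelial cells, of which Cd34, which endothelial cells express themselves, made up 38 and 19.6 CPM, while Dpt had 44 UMIs and 1 UMI. Pi16 went the other way, at 1.95 and 5.02 CPM (1.36, 0.26 to 2.53), as did Thy1 with 1 and 5 UMIs and Gli1 with 1 UMI in each. In the same cells the 4 mesothelial markers summed to 5.69 and 0.753 CPM, and the part of both lists in these ratios was not tested.

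In Kupffer cells Col14a1 was at 42.7 CPM (37.6 to 48.3) and 46.3 (40.2 to 53), Col6a1 at 9.59 and 6.48 CPM and Col6a3 at 9.42 and 9.17 CPM, between 1.34% and 2.43% of the stellate levels, where Dcn stood at 1.31% and 1%. Of these 3 chains over 5 CPM none was 1.5-fold lower, against 6.83% of the 9514 genes tested, or higher, against 5.21%. Their median log2 ratio was -0.04 beside -0.06 over all genes, but -1.43 with cells of more than one rule kept and -1.05 with higher class bounds. The other 6 chains had at most 24 UMIs in either library.

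Other chains and collagen VI partners were set beside the 9 for stellate cells. Of the 8 fibrillar chains over 5 CPM, 5 were at least 1.5-fold lower, with a median of -1.16, from Col1a1 at -1.95 to Col27a1 at 0.19. Of 3 network-forming chains tested, 1 was lower (Col4a5, -0.66), and none of 3 other nonfibrillar chains was (Col16a1, Col20a1 and Col25a1, median -0.26). The remaining collagen VI chains Col6a4 and Col6a5 stayed under 5 CPM, at 4.59 and 2.32 CPM (-0.99, -1.19 to -0.78) and at 1.19 and 0.48 CPM (-1.31, -1.76 to -0.88), ratios larger than that of Col6a3.

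Of 15 collagen VI receptors and binding partners over 5 CPM, 4 were lower and none higher, with a median of -0.26. The lower ones were Fmod, the fibril-binding proteoglycan fibromodulin (8.71 and 2.58 CPM, -1.75), Itga2, the collagen-binding integrin alpha 2 (8.23 and 3.96 CPM, -1.06), Matn2, the adaptor matrilin 2 (-0.65), and Fn1, fibronectin (-0.60). Antxr2, a cell surface receptor for collagen VI, was at 33 and 30.8 CPM (-0.10, -0.16 to -0.04), its relative Antxr1 at 71 and 71.2 CPM (0.00, -0.04 to 0.04), and Dcn, the proteoglycan decorin, was higher (0.27). Of 14 collagen folding, processing and crosslinking genes, 2 were lower, the crosslinking oxidases Lox (20.6 and 9.24 CPM, -1.16) and Loxl1 (87.1 and 40.3 CPM, -1.11), with a median of -0.28.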

How the data were processed

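Raw counts of UMIs for every gene in every barcode are what the authors deposited, from 10x 3' v3.1 libraries with Cell Ranger 7.0.1 and mm10 named in the submitters' processing notes. Counts are of transcript 3' ends, so CPM values carry no length correction. The members and all gene lists were chosen with earlier results of these data known. Barcodes with over 5% mitochondrial UMIs, under 2000 or over 7000 genes, or over 50000 UMIs were left out after the study's methods. Cells with at least 15 UMIs per 10000 of Lrat, Ecm1, Hgf and Reln were called stellate, with at least 8 of Kdr, Stab2 and Ptprb endothelial, and with at least 8 of Clec4f, Cd5l, Vsig4 and Csf1r Kupffer cells. Few stellate cells lay near the bound (23 and 15 within 20% above it). Cells meeting more than one rule (245 and 221) stayed out of the classes, and no doublet caller was run.

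Counts were summed per class and library and given as CPM, with 95% intervals that were exact Poisson for levels, exact conditional for ratios and Clopper-Pearson for shares. Only genes with a mean of 5 CPM entered counts and medians, and 1.5-fold was the size named. All 9 members are described, with at most 4 examples per other list, those of largest and smallest ratio, beyond genes a small count turns on. For likeness, the 3 genes with the highest lower r of the 2 libraries were taken, from r of 0.2. Antxr1, Antxr2, Col6a4, Col6a5, and Igfbp6 and C3 in cells outside the classes, were named after their values were seen. Calculations used Python 3.11.15, NumPy 2.4.6, SciPy 1.17.1, edgeR 4.0.16 and DESeq2 1.42.0 (scaling alternatives only), and the interval code was tested on simulated data. Alternatives covered scaling, cell filters, class bounds, minimum level and thinning. Equal quartile shares and leaving out subtype cells, shared barcodes or the cell richest in fibrillar collagen were added after seeing the data. Gene positions are from GENCODE vM21.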

Additional observations from a re-analysis of the deposited data

Results flagged for a closer look

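The ratio of Col14a1, the fibril-surface chain with the most UMIs, pointed in opposite directions in 2 cell classes. It was -0.19 in stellate cells and 0.12 in Kupffer cells (42.7 and 46.3 CPM). The interval in Kupffer cells, -0.16 to 0.39, includes no difference. The difference between classes was not tested, and the Kupffer level was 1.72% and 2.13% of the stellate level, close to the share at which Dcn stood there.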

How the results depend on the processing

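Of 108 values for the medians, counts and summed collagen VI under the alternatives, 81 stayed within the interval of the main value or, for counts, within 1.5 times of it, and 27 moved. Reversal was marked only for summed collagen VI and for medians of at least 1.5-fold, where none reversed. The Kupffer median of -0.04 could not be so marked, and was 0.01 with TMM scaling and 0.02 with median-of-ratios scaling. The number of stellate chains 1.5-fold lower, 4 of 7, was 5 of 8 with a minimum of 1 CPM, 5 of 9 with no minimum and 3 of 6 without Alcam and Svep1 high cells. The share of all genes that were lower was counted only at the main setting (3.05%), so no count under an alternative has one beside it. In stellate cells the median of -0.79 and the summed collagen VI ratio of -0.56 were -0.75 and -0.52 with TMM scaling and again -0.75 and -0.52 with median-of-ratios scaling, which shifted every gene by 0.04 and 0.05. They were -0.61 and -0.41 with the mean of per-cell CPM, -0.85 and -0.60 with no upper limits, -0.84 and -0.60 with no filter on barcodes, and -0.73 and -0.52 in cells of 10000 to 30000 UMIs. Higher class bounds gave -0.55 for collagen VI, and a minimum of 1 CPM gave a median of -0.92. Without cells of at least 2 fibroblast or mesothelial UMIs the median and the collagen VI ratio were -0.22 and -0.18. The number of chains 1.5-fold lower then went from 4 of 7 to 1 of 5. Col6a3 was then at -0.31, while Col12a1 (-1.29) and Col15a1 (-2.52) left the set only through the 5 CPM minimum.

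The following were chosen after seeing the data. With equal fibrillar quartile shares the values were -0.16 and 0.00, 2 chains were 1.5-fold lower (Col8a1 and Col15a1), and Col12a1 reversed to 0.24. Without Notch3 and Clstn2 high cells they were -0.90 and -0.67, and without Alcam and Svep1 high cells -0.55 and -0.49. The cause of each shift was not tested.

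In Kupffer cells the median of -0.04 was -1.05 with higher class bounds and -1.43 with cells of more than one rule kept. In endothelial cells that last setting gave a median of -0.04, with Col6a1 at 0.17 and Col14a1 at 0.22. Also in endothelial cells, Col14a1 was at 0.08, Col6a1 at -0.35, Col6a2 at -0.16 and the median at -1.01 with lower class bounds, and Col12a1 was at 1.05 (-2.07 to 4.63) in cells of 10000 to 30000 UMIs. Across 18 alternatives Col8a1 in stellate cells ranged from -1.55 to -1.20 and Col15a1 from -3.04 to -0.75.

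No paired analysis was possible because a single library stood for each genotype, and no replicate was left out for the same reason. Depth limits the endothelial and Kupffer values, where most chains had fewer than 100 UMIs and where 3 UMIs per library correspond to between 0.487 and 0.753 CPM. In p16-LRTD stellate cells 3 UMIs are 0.021 CPM, while the spread between mice is unknown.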
